A study of Xenopus tropicalis with 16 samples.

Results

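The 196 genes described here, of 14373 counted, had to rise at least 4-fold in control explants between the gastrula and the neurula. Their control level then had to change by less than 1 on the log2 scale up to the tailbud stage. In explants injected against the SUV4-20H enzymes, their mean at the neurula had to reach at least 0.8 of the control mean. RNA was taken from animal caps (ACs) of Xenopus tropicalis, which are pieces of prospective ectoderm cut from the blastula that go on to form epidermis in culture. Embryos had received either morpholinos against Suv4-20H1/2 (the knockdown) or a control morpholino (CoMo). The caps were collected as gastrulae (stage NF10), as neurulae (NF16) and at the tailbud stage (NF24). The knockdown and the control had 3 libraries each at NF10, 2 each at NF16 and 3 each at NF24, thus 16 libraries in all, 8 per condition. Every group carried an injected morpholino, so none of the explants was uninjected. A morpholino of this kind blocks translation and leaves the transcript in place, so its target need not fall in RNA-seq, and depletion was not checked in these libraries. According to the study's own description, knockdown caps fell apart into single cells by the tailbud stage. The study also reports that the RNA profiles from this stage scattered in a principal component analysis, which hampered its assessment of changed genes. It turned to the neurula for further analysis, whereas the NF24 libraries are used here.

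SUV4-20H1 and SUV4-20H2 are histone methyltransferases that add further methyl groups to an already monomethylated lysine of histone H4. The trimethylated form is best known as a mark of compact chromatin. According to the study, the dimethylated form is commoner than any other histone mark in vertebrates. In the frog ectoderm, the time between gastrula and neurula is when pluripotent cells settle on epidermal fates and when the larval skin begins to make its mucus-secreting, ion-transporting and multiciliated cells. A gene that is low in the gastrula cap and high in the neurula cap is therefore a candidate marker of that transition, although such a rise does not by itself tell in which cell type it takes place. In bulk explants, fewer cells of a type and less RNA per cell cannot be told apart.

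Members were chosen from TMM-scaled counts per 1000000 assigned fragments (CPM). A gene had to have at least 1 read in 12 of the 16 libraries, a control mean that rose by at least 2 on the log2 scale from NF10 to NF16, a further change under 1 in size from NF16 to NF24, and an NF16 knockdown mean of at least 0.8 of the control mean. In each ratio 1 CPM was added to both means. Of 14373 genes, 11997 had enough reads, 1758 rose by the required amount and 1169 of these were then flat to the tailbud stage. Within these 1169 neurula-onset genes, 196 (16.8%) met the condition on the knockdown and 973 did not. All 196 had passed the read filter by the rule itself, and they were 1.63% of the genes past it. The knockdown libraries of NF10 and NF24 entered the rule through the read filter and the scaling factors, and their levels were not compared. With filter (8 of 10 libraries) and scaling over the 10 compared libraries alone, the rule gave 194 genes, all of them among the 196.

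None of the 14373 gene identifiers matched the symbols of the RefSeq table that was used, which belongs to assembly UCB_Xtro_10.0, while the identifiers belong to assembly v9 of Xenbase. Gene function, the tissue markers of the explants and their cell type markers were thus not analysed here. At most 4 genes are given by identifier, 2 for a rise and 2 for a fall, and the others by counts, ranges and values.

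Depth ranged between 10692700 and 40286000 fragments assigned to genes, and each library had reads on 11920 to 13308 of the genes. All 3 NF24 knockdown libraries were shallower than every NF24 control. Unmapped reads took 51.2%, 31.3% and 40.5% of the NF24 knockdown libraries 1 to 3, against at most 34.0% in any control of the series. Of the mapped fragments in the same libraries, 50.5%, 42.7% and 53.0% lay outside gene models, against at most 45.8% in any control. NF24 knockdown replicates 1 and 3 therefore stood apart on both measures, and the main NF24 counts and medians are given with and without them.

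At the gastrula stage the genes were present but low. Their median level was 9.68 CPM in knockdown and 9.71 CPM in control caps. In controls 36 of the 196 had a mean under 1 CPM, 96 exceeded 10 CPM and 11 exceeded 100 CPM, so the set ran from nearly silent genes to genes that were already well expressed and rose further. No gene was without reads in all 3 NF10 controls, and 182 had reads in each of them. The other 973 neurula-onset genes started lower, at a median of 2.00 CPM in knockdown and 2.07 CPM in control caps.

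By the neurula stage the median was 124.0 CPM in knockdown and 121.7 CPM in control caps. In controls the rise had a median of 2.84 on the log2 scale, between 2.00 and 7.59, which is 7.15-fold at the median. It was 4- to 8-fold for 110 genes, 8- to 16-fold for 38 and 16-fold or more for 48. The other neurula-onset genes rose further in controls, by a median of 3.65, to 68.4 CPM, and in the knockdown they stood at 19.8 CPM. From NF16 to NF24 the controls of the 196 genes changed by a median of -0.20, with 114 genes lower and the rest higher at NF24. All of these values entered the choice of the genes and describe them, with no test.

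**Figure D1:**
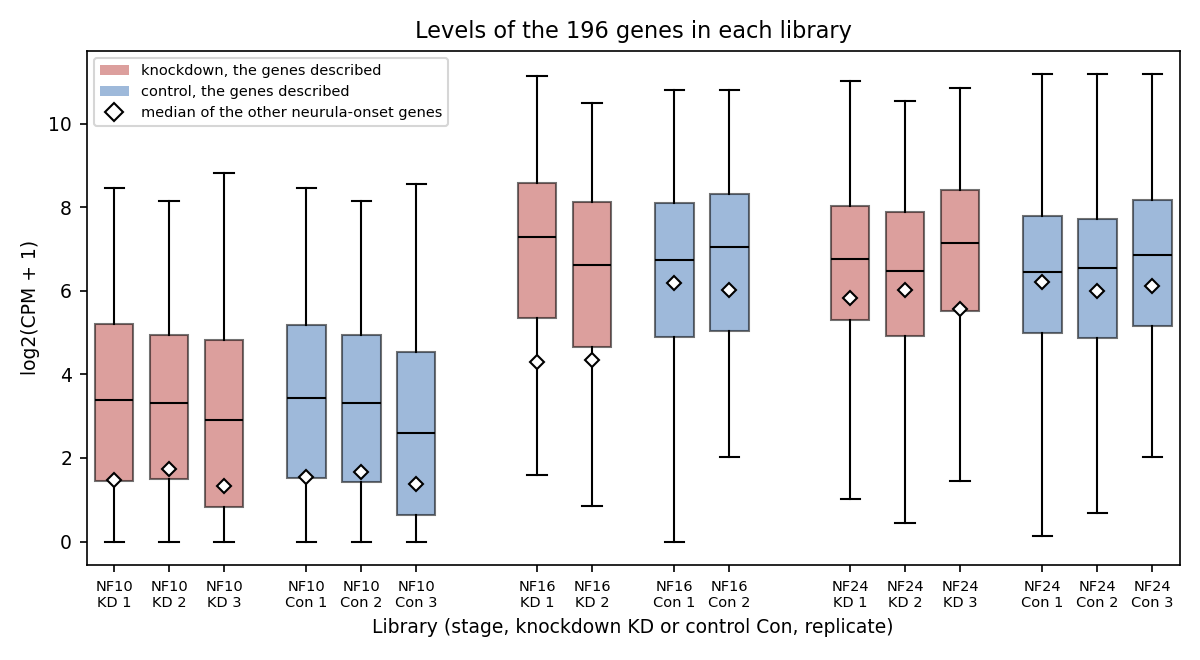
Boxes give log2(CPM + 1) of the 196 genes in each of the 16 libraries (box: quartiles, line: median, whiskers: lowest and highest gene), knockdown (KD, red) left of control (Con, blue) within each stage. Open diamonds give the median of the other 973 neurula-onset genes, which at NF16 lies far below the boxes' medians in both knockdown libraries (19.8 CPM by group mean) and near them in the controls (68.4 CPM).

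The share of neurula-onset genes on time varied with their gastrula level and with the size of their rise. Of the onset genes under 1 CPM in NF10 controls, 36 of 395 (9.11%) met the condition on the knockdown, against 64 of 433 (14.8%) at 1 to 10 CPM, 85 of 289 (29.4%) at 10 to 100 CPM and 11 of 52 (21.2%) above 100 CPM. Likewise 110 of 445 genes (24.7%) with a rise of 2 to 3 on the log2 scale met it, 38 of 253 (15.02%) with a rise of 3 to 4 and 48 of 471 (10.2%) with a rise of 4 or more. The shares thus fell with the size of the rise, and were lowest where the gastrula level was lowest. These shares are a description, since the level at NF10 and the rise were both part of the rule.

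The ratio of knockdown to control at NF16 had a median of 1.01, from 0.01 on the log2 scale, and its log2 value lay between -0.32 and 2.12. In 100 genes the knockdown mean was the higher and in 96 the lower. The ratio was between 0.8 and 1.25 in 143 genes, above 1.25 in 53 and at least 2 in 12. The gene just inside the limit had 0.8002 of its control and the nearest onset gene outside it had 0.795. At the limit on the rise the neighbours were 2.004 inside and 1.996 outside, and at the limit on the later change they were -0.99 inside and -1.02 outside. As the histogram of NF16 ratios shows, the limit of 0.8 cut through a continuous distribution in which no gap set the 196 genes apart.

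**Figure D2:**
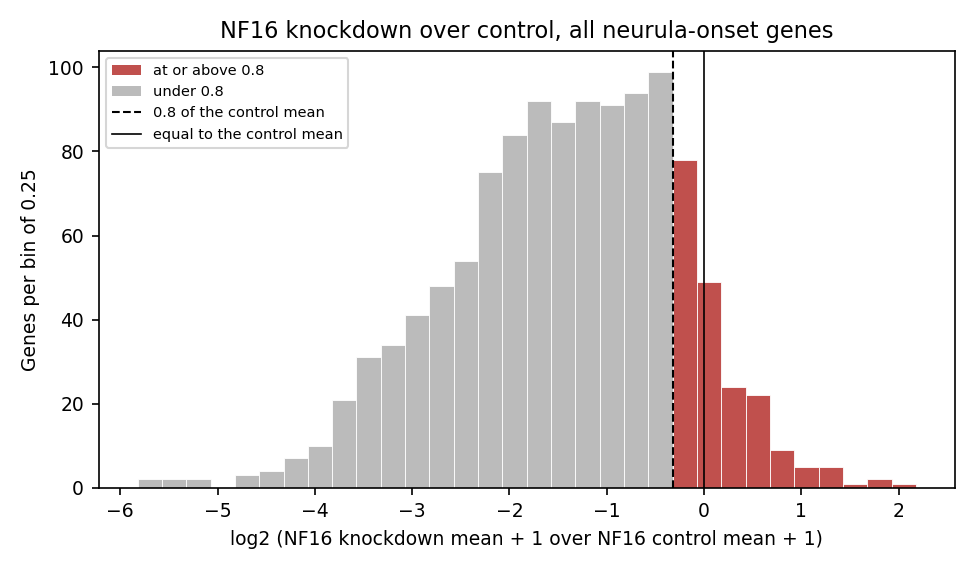
Number of the 1169 neurula-onset genes (vertical axis) by their log2 ratio of NF16 knockdown mean to control mean, 1 CPM added to each, in bins of 0.25. Red bars hold the 196 genes at or above 0.8 of control (dashed line), grey bars the other 973, and the solid line marks equality.

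How far single libraries met the condition differed. Only 81 of the 196 genes (41.3%) had both NF16 knockdown libraries at 0.8 or more of the control mean. In 94 (48.0%) it was met by replicate 1 and not by replicate 2, and in 21 (10.7%) by replicate 2 and not by replicate 1. For the genes outside the 81, being on time was thus a statement about a mean of 2 libraries that lay on either side of the limit. Applied without knockdown replicate 1 the rule gave 131 genes, of which 102 were among the 196, and applied without replicate 2 it gave 254 genes, of which 175 were among them.

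Relative to the mean of the NF16 controls, the genes had a median log2 level of 0.31 in knockdown replicate 1 and -0.29 in knockdown replicate 2. The controls themselves stood at -0.13 and 0.12. The other neurula-onset genes were at -1.72 and -1.73 in the same knockdown libraries, and the 11997 genes at -0.01 and -0.03. The medians of both knockdown libraries were therefore close over the other onset genes and over all genes, and apart over the genes described here.

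Gene by gene, knockdown replicate 1 exceeded replicate 2 in 157 of 196 genes, by a median of 0.69 on the log2 scale, and the libraries differed by over 2-fold in 75 genes (38.3%). The same difference had a median of 0.01 among the other onset genes (15.7% over 2-fold) and of -0.03 among all genes (10.5% over 2-fold). Between the NF16 controls 17 of the 196 genes (8.67%) differed by over 2-fold, against 8.12% of the other onset genes and 4.91% of all genes. Both libraries had entered the rule, so this spread is a description. Replicate 1 also had the larger share of mapped fragments outside gene models, 36.1% against 31.5% in replicate 2 and 30.7% and 30.9% in the controls. The part of this in the result was not tested.

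The 196 genes took 4.72% and 3.06% of all assigned fragments in the NF16 knockdown libraries, against 3.08% and 3.39% in the NF16 controls. Expressed as a share of the rise from the NF10 to the NF16 control mean, the median gene had covered 129% of it in knockdown replicate 1 and 77.8% in replicate 2. The median of the other onset genes was 23.2% and 23.5%. Replicate 1 was thus past the control level and replicate 2 short of it, while the lagging genes had covered a minor part of the way in either.

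**Figure D3:**
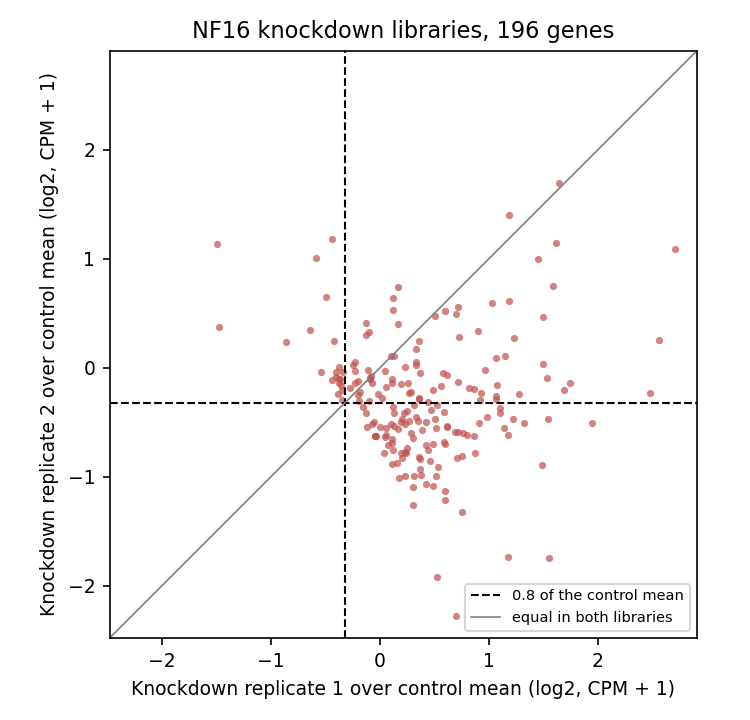
Each point is 1 of the 196 genes, with its log2 ratio to the NF16 control mean (CPM + 1) in knockdown replicate 1 on the horizontal and in replicate 2 on the vertical axis. Dashed lines mark 0.8 of control, and the 81 genes in the upper right field passed it in both libraries, whereas most points lie below the grey line of equality, with replicate 1 the higher in 157 genes.

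In the NF16 comparison over all genes, edgeR's quasi-likelihood test with Benjamini-Hochberg adjustment called 7.97% of the 11997 genes higher and 12.9% lower in the knockdown at adjusted p under 0.05. It called 5 of the 196 genes higher and 0 lower. DESeq2 called 10 higher and 0 lower, against 11.3% and 15.1% of all genes. Both knockdown libraries lay above both controls in 19 genes, where the background over all genes was 31.5%, and below both in 18 genes, against a background of 33.3%. Since this contrast chose the genes, nothing is read from the counts.

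The 5 genes called higher show what a level above control looked like. The most extreme had 1650 and 538 CPM in the NF16 knockdown libraries, against 234 and 269 CPM in the controls, and stood at 240, 186 and 646 CPM in NF24 knockdown caps, against 202, 138 and 228 CPM in NF24 controls. Its NF16 knockdown libraries were far apart, and both lay above both controls. Another of the 5 was steadier, with 29.0 and 30.1 CPM in NF16 knockdown and 4.88 and 12.3 CPM in NF16 control caps. The most highly expressed of all 196 genes by its NF16 control mean had 2270 and 1450 CPM in the knockdown libraries, against 1787 and 1746 CPM in the controls, which lay between them.

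Whether these genes also rose in knockdown explants could be tested with libraries whose levels the rule had not compared, by setting the 3 NF24 knockdown libraries against the 3 NF10 knockdown libraries. Of the 196 genes, 194 were higher at NF24 at adjusted p under 0.05 and 0 were lower (edgeR quasi-likelihood test, Benjamini-Hochberg adjustment over 11997 genes), with a background of 28.7% of all genes called higher and 29% called lower. DESeq2 called 193, with a background of 32.5%. Of the 194 genes chosen without any use of these 6 libraries, 192 were called higher and 0 lower by edgeR. Same-numbered knockdown and control libraries deviated together at both stages, so a choice on the controls was not independent of these knockdown libraries. Every NF24 knockdown library exceeded every NF10 knockdown library in 193 genes, against 32.9% of all genes. The rise had a median of 2.91 on the log2 scale, between 1.04 and 7.97, and all genes tested had a median of 0.02.

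The corresponding rise in controls had a median of 2.84, between 1.09 and 7.56. Through its limits on the rise and on the later change, the rule itself held this control rise above a floor. Same-numbered knockdown and control libraries also deviated together at both stages, so the likeness of both changes is partly built in. Within these limits, knockdown explants reached the tailbud stage with these genes raised to about the extent seen in controls. The scatter of both changes lies along the line of equality. The rise was not particular to the genes on time. Of the other 973 neurula-onset genes, 951 were also called higher, with a median of 3.45 in the knockdown and 3.67 in controls. The lists differed in how far the knockdown level had come up by NF16. From NF16 to NF24 the knockdown mean of the 196 genes changed by a median of -0.06, and that of the other onset genes by 1.35. The NF16 condition of the rule largely fixes this contrast. At NF24, 593 of the other 973 genes (60.9%) had a knockdown mean of at least 0.8 of the control mean. The condition was met by 186 of the 196 genes and by 81.4% of all genes.

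**Figure D4:**
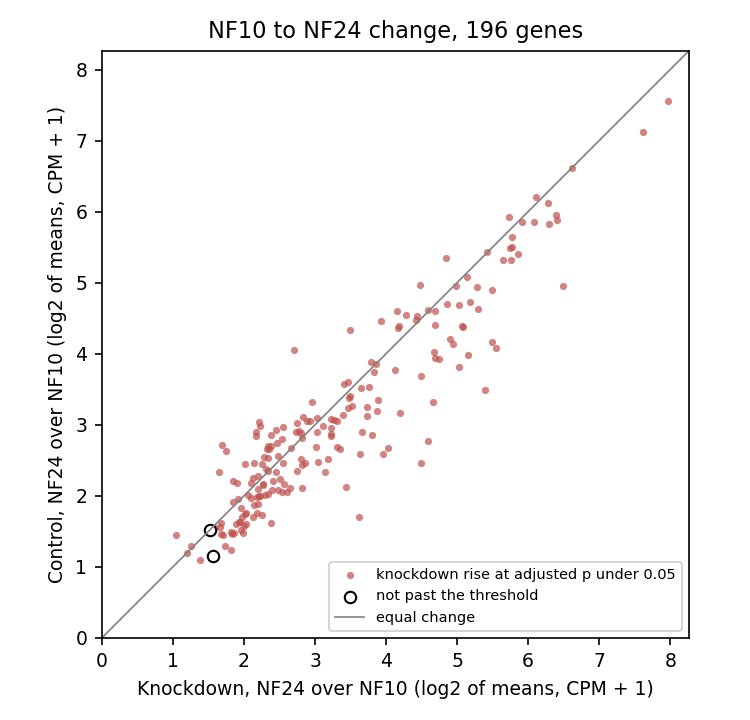
Each point is 1 of the 196 genes, with the log2 change of its mean from NF10 to NF24 (CPM + 1) in knockdown caps on the horizontal axis and in control caps on the vertical axis. The grey line marks equal change, with medians of 2.91 and 2.84, and the 2 open circles are the genes whose rise in the knockdown did not pass the threshold.

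Both genes that missed the threshold were uneven at NF10. The first had 48.7, 19.3 and 50.1 CPM in NF24 knockdown caps, against 35.1, 3.06 and 0.83 CPM in NF10 knockdown caps (adjusted p = 0.239, edgeR). Its NF10 controls were as uneven, at 29.6, 4.004 and 0.16 CPM. The second had 3.26, 11.1 and 25.2 CPM at NF24, against 10.6, 0.63 and 0.086 CPM at NF10 in the knockdown (adjusted p = 0.279, edgeR). In each gene the high NF10 library was replicate 1, and the NF24 and NF10 knockdown libraries overlapped.

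Of the genes past the threshold, 187 met the condition for naming, and the 2 with the largest fitted rise were close to silent at NF10. Xetrov90022799m.g had 57.9, 27.5 and 34.6 CPM in NF24 knockdown caps, against 0, 0.15 and 0 CPM in NF10 knockdown caps, which was 3 fragments in all. At NF24 all 3 libraries were far above every NF10 library. The pooled NF24 rate was 1045 times the pooled NF10 rate, with an exact 95% counting interval of 357 to 5073 that covers counting error only. The fitted log2 change in edgeR was 9.74 ± 0.96 (approximate SE, adjusted p = 7.2e-05), a value that depends on the prior count. At NF16 this gene had 30.7 and 3.21 CPM in the knockdown and 12.3 and 13.8 CPM in the control libraries, so that replicate 1 alone carried it past 0.8 of control.

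Xetrov90013676m.g had 61.7, 15.6 and 68.8 CPM in NF24 knockdown caps, against 0, 0.15 and 0.029 CPM in NF10 knockdown caps, 4 fragments in all. The pooled ratio was 904, with an exact 95% counting interval of 353 to 3323, and the fitted change 9.67 ± 0.98 (approximate SE, adjusted p = 8.1e-05, edgeR). Its NF24 controls were at 22.3, 9.72 and 21.3 CPM, so replicate 2 was the low one in both conditions. At NF16 it had 38.5 and 13.8 CPM in knockdown and 26.3 and 17.2 CPM in control caps.

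To ask whether the control level was also held at the tailbud stage, NF24 knockdown caps were set against NF24 control caps. The NF24 controls had entered the rule through the limit on the NF16 to NF24 change, whereas the levels of the NF24 knockdown libraries were not compared in it. The genes had a median of 117.7 CPM in knockdown and 98.4 CPM in control caps. Of the 196, 186 had a knockdown mean of at least 0.8 of the control mean, which was so for 81.4% of all genes, and 10 did not. The log2 ratio had a median of 0.14, between -0.67 and 1.96, and 136 genes were higher and 60 lower in the knockdown mean, where 49.6% of all genes were higher. The median was 0.00 over all genes and -0.24 over the other neurula-onset genes.

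No gene of the 196 differed at adjusted p under 0.05 by edgeR, and 0% of all genes did. At an unadjusted p under 0.05, 15 (7.65%) were higher and 1 (0.51%) was lower, against 6.75% and 3.48% of all genes. With the replicate number as a block the adjusted count was again 0, against 4 of all 11997 genes. The unadjusted count was 39 genes, 36 higher and 3 lower, against 16 without the block. The 39 were 19.9% of the genes, where 18.5% of all genes had an unadjusted p under 0.05 in the blocked fit. By direction, 1214 of all 11997 genes were higher and 1003 lower in that fit. DESeq2 called 3 genes (1.53%) higher and 0 lower, against 1.88% and 0.358% of all genes. Each knockdown library lay above each control in 17 genes (8.67%, background 8.64%) and below each control in 8 genes (4.08%, background 7.26%). In 10 genes (5.10%) the ratio of means was 2-fold or more, against 5.65% of all genes. In these counts without the block, the shares of higher genes were near those of all genes, and the shares of lower genes were smaller.

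The small excess in the NF24 median rested on 2 of the 3 knockdown libraries. Over the mean of the NF24 controls, the genes' median log2 level was 0.08, -0.15 and 0.42 in knockdown replicates 1 to 3 and -0.08, -0.13 and 0.22 in control replicates 1 to 3. Replicate 3 was the highest in both conditions, and the knockdown and control ranges overlapped. The 2 high knockdown libraries, 1 and 3, were those with the largest shares of unmapped reads and of mapped fragments outside genes. The part of these shares in the excess was not tested. Without knockdown replicate 3 the median fell to 0.01, and with replicate 2 as the sole knockdown library it was -0.15. In replicate 2 alone, 131 genes (66.8%) were at 0.8 or more of the control mean, against 78.3% of all genes, and 77 (39.3%) were above that mean, against 48.0% of all genes. The same library was above each control in 40 genes (20.4%, against 26.8% of all genes) and below each control in 66 (33.7%, against 24.7%). The tendency of the genes to lie above control at NF24 was thus not seen in this library.

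Control and knockdown libraries of the same number deviated together at NF24, so each knockdown library was also set against its own control. The median log2 ratios were 0.22, 0.04 and 0.25 in pairs 1 to 3, with 128, 100 and 144 genes higher in the knockdown. In 63 genes (32.1%) the knockdown was higher in all 3 pairs, against 21.0% of all genes, and in 21 (10.7%) it was lower in all 3, against 21.1% of all genes. Taken within pairs, the excess was again smallest in the pair whose knockdown library had an unmapped share within the range of the controls.

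The 3 genes that DESeq2 called all had their NF24 knockdown libraries above the controls, with different spreads. The highest of them had 962, 1400 and 971 CPM in knockdown and 577, 607 and 599 CPM in control caps at NF24 (DESeq2 adjusted p = 0.0166, edgeR adjusted p = 0.351). The lowest had 27.3, 25.9 and 26.9 CPM in knockdown and 2.59, 5.48 and 10.3 CPM in control caps (DESeq2 adjusted p = 0.00255, edgeR adjusted p = 0.351), and is the steady gene that also stood above control at NF16. The remaining gene had 47.7, 42.6 and 57.7 CPM in knockdown, against 24.002, 26.8 and 26.7 CPM in control caps (DESeq2 adjusted p = 0.0134, edgeR adjusted p = 0.351). In all 3 the groups did not overlap, and the calls depended on the tool.

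Of the 8 genes with every NF24 knockdown library below every control, the 2 with the largest fitted fall are named. Xetrov90023604m.g had 258, 314 and 252 CPM in knockdown and 398, 446 and 422 CPM in control caps, means of 275 ± 34.3 and 422 ± 24.4 CPM (SD, n = 3 each). The groups were well apart, yet the fitted change of -0.64 ± 0.19 (approximate SE) did not pass the threshold (adjusted p = 0.374 by edgeR, 0.0963 by DESeq2). At NF16 it had 285 and 345 CPM in knockdown and 308 and 371 CPM in control caps, and at NF10 94.9, 73.6 and 91.9 CPM in knockdown and 101, 66.4 and 80.5 CPM in control caps. It was thus level with control at both earlier stages.

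Xetrov90017581m.g had 16.01, 21.8 and 12.1 CPM in NF24 knockdown and 22.6, 21.9 and 22.3 CPM in NF24 control caps, where knockdown replicate 2 all but reached the controls. The fitted change was -0.44 ± 0.27 (approximate SE, adjusted p = 0.581, edgeR). Its NF16 libraries had 24.2 and 75.3 CPM in knockdown and 49.98 and 23.99 CPM in control caps, so the conditions overlapped and the highest value was in the knockdown.

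**Figure D5:**
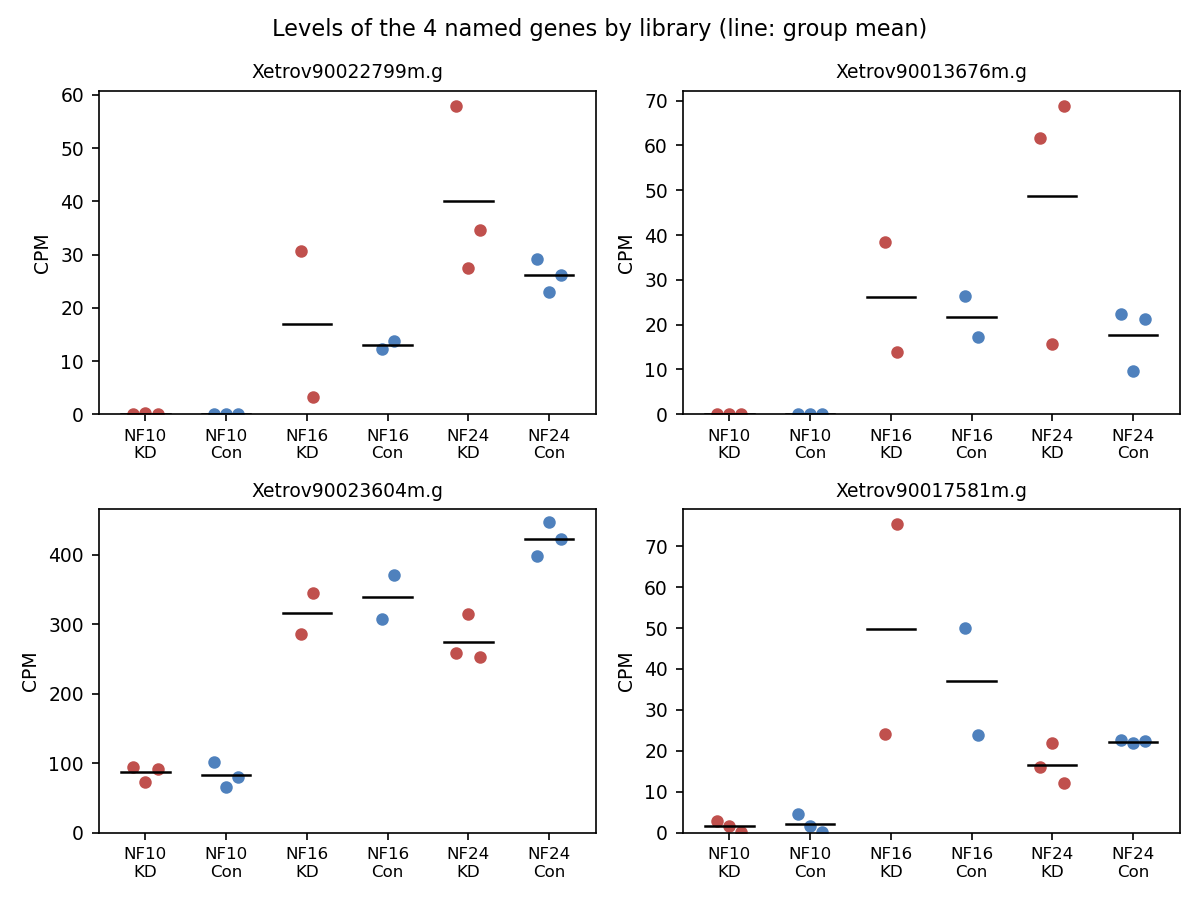
CPM of the 4 named genes in every library, knockdown (KD, red) left of control (Con, blue) at each stage, with a black line at each group mean. The upper genes are near 0 at NF10 and high at NF24 in both conditions, and the lower genes are those with all 3 NF24 knockdown libraries below the controls (258, 314 and 252 CPM against 398, 446 and 422 CPM for Xetrov90023604m.g).

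Genes that stood higher over control at NF16 tended to stand higher in the NF24 mean as well. The 12 genes with an NF16 ratio of at least 2 had a median log2 ratio of 0.85 at NF24, and all 12 were higher in the knockdown mean. Among the 88 genes with an NF16 ratio of 1 to 2 the median was 0.30, with 69 higher, and among the 96 at 0.8 to 1 it was 0.04, with 55 higher. Over the 196 genes the NF16 and NF24 log2 ratios had a Pearson r of 0.53 and a Spearman rho of 0.44, with no library in common. The values were 0.44 and 0.48 over the 973 other onset genes and 0.43 and 0.44 over all 11997 genes, so a relation of this kind was found across the transcriptome. In the 196 and the 973 genes the rule also limited the control change from NF16 to NF24, which ties the control means of both ratios. Genes are not independent replicates, and the coefficients describe these libraries.

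The split by single NF16 libraries gave a similar picture. The 81 genes with both NF16 knockdown libraries at 0.8 or more had a median log2 ratio of 0.30 at NF24, with 62 higher, the 94 carried by replicate 1 had 0.13, with 63 higher, and the 21 carried by replicate 2 had 0.00, with 11 higher. In the NF24 knockdown libraries 1 to 3 the first of these groups stood at 0.16, -0.12 and 0.53 over the control mean, the second at 0.12, -0.26 and 0.42 and the third at -0.25, 0.14 and -0.07. Replicate 2 was the lowest library for the first and second groups and the highest for the third. The rise from NF10 to NF24 in the knockdown was called in 80, 93 and 21 genes of these groups, thus in nearly every gene whichever NF16 library had carried it.

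At the gastrula stage, NF10 knockdown caps were set against NF10 controls, which the rule had used. No gene of the 196 was called by edgeR at adjusted p under 0.05, nor at an unadjusted p under 0.05 (0 genes, against 0.367% of all genes higher and 0.108% lower). DESeq2 called 0 of the 196, and 0% of all genes higher and 0.00834% lower. Over all genes edgeR called 0%. With the replicate number as a block the adjusted count stayed at 0, and 16 genes (8.16%) had an unadjusted p under 0.05, where 9.53% of all genes did. The log2 ratio had a median of 0.00, between -0.92 and 1.18, with 97 genes higher and 99 lower in the knockdown, where 45.8% of all genes were higher. Each knockdown library was above each control in 2 genes (background 1.88%) and below in 2 (background 1.82%).

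What did vary at NF10 was the replicate number. The median level was 9.47, 8.93 and 6.52 CPM in knockdown replicates 1 to 3 and 9.74, 8.90 and 5.04 CPM in control replicates 1 to 3, so replicate 3 was low in both conditions. Over the mean of replicates 1 and 2, replicate 3 had a median log2 difference of -0.32 in the knockdown and -0.42 in controls, while over all genes it was -0.03 and 0.06. In both conditions replicate 3 was thus below the others over these genes, and close to them over all genes.

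Whether the knockdown effect changed from NF10 to NF24 was tested as an interaction in a fit of all 6 groups, without a replicate block. It was called for 0 of the 196 genes by edgeR (smallest adjusted p = 0.839), with 2 at an unadjusted p under 0.05, where 0 of all genes were called and 5.1% had such an unadjusted p. No other tool was run for this test. The biological coefficient of variation, edgeR's estimate of the spread between libraries of a group, was 0.46 for NF24 against NF10 knockdown caps, 0.38 for NF24 knockdown against control and 0.50 for NF10 knockdown against control. At this spread with 3 libraries per group, a missed threshold does not show that the levels were equal. In the interaction, the pairing of same-numbered libraries was also left out of the fit.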

How the data were processed

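RNA of animal caps was sequenced by the authors in 16 libraries. Per the labels, ribosomal RNA was removed and directional libraries were made. The authors aligned reads to X. tropicalis v9.1 with STAR (2.4.2a in the submitters' processing notes, a later release in the study's methods) and counted fragments over Xenbase gene models in the same run. The deposited values are raw counts per gene, unstranded and for each strand, with no normalization. Fragments of several genomic positions were not tallied, so near-identical copies may be undercounted. Of the strand columns the one with the larger total, column 4, was used. Lines that tally unmapped, ambiguous and outside-gene fragments stayed out of the library sizes.

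Genes with at least 1 read in 12 libraries (75%, the filter of the study) were kept, and TMM factors were computed over them in edgeR 4.0.16 (R 4.3.3). The members and the lists were chosen with earlier results of these data known, and no share, split or named gene counts as independent of them. Each comparison was fitted on its own libraries with the quasi-likelihood test and Benjamini-Hochberg adjustment over 11997 genes, at a threshold of 0.05, where the authors had used DESeq2. DESeq2 1.42.0 was an alternative, and its adjusted p was left as missing where it gave none. Medians and ratios of means are log2 with 1 CPM added, which understates the change of low genes. The standard error was approximated from the fitted log2 change and its F statistic. Named genes averaged 5 CPM or more across the libraries compared. They were the 2 with the largest fitted rise in the knockdown from NF10 to NF24 and the 2 with the largest fitted fall at NF24 with no overlap of the groups. Replicates are biological replicates per the study, each from pooled caps.

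Same-numbered knockdown and control libraries deviated together from their group means at NF10 (r = 0.80, 0.82 and 0.70) and at NF24 (r = 0.39, 0.22 and 0.52), so their numbers were taken to pair them in a replicate block. They did not at NF16 (r = -0.14), nor between NF24 and NF10 knockdown libraries (r = -0.06, 0.00 and 0.02). No libraries of a group agreed within sampling noise. The code was checked on simulated counts with 1 common spread for all genes. In them 200 of 11997 genes averaging 5 CPM or more were changed, up or down, by the size of the rule's rise limit. The edgeR test recovered 54.5% of the 200 for NF24 against NF10 knockdown caps. It recovered 79.5% for knockdown against control at NF24 and 25% at NF10. Of the unchanged genes it called 3, 9 and 2 in the same order.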

Additional observations from a re-analysis of the deposited data

Results flagged for a closer look

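In the strand column that was not used for the tests, fragments of the 196 genes were more frequent in 4 knockdown libraries than in any control of the same stage. The opposite-strand share was 0.352% and 0.549% in NF16 knockdown replicates 1 and 2, against 0.265% and 0.278% in the NF16 controls. It was 0.754% and 0.726% in NF24 knockdown replicates 1 and 3, against 0.243%, 0.414% and 0.290% in the NF24 controls, while NF24 knockdown replicate 2 had 0.4004%. Without the 7 genes whose opposite-strand share exceeded 10% of their own fragments (51.3% at most), the remaining 189 genes had 0.274% and 0.241% in NF16 knockdown and 0.138% and 0.142% in NF16 control libraries. At NF24 they had 0.701%, 0.362% and 0.662% in knockdown and 0.182%, 0.346% and 0.239% in control libraries. Over all genes the share was 1.55% and 1.45% in NF16 knockdown and 1.201% and 1.23% in NF16 control libraries, so it was higher in the knockdown there too. At NF24 the share over all genes was 4.58%, 1.76% and 3.13% in NF24 knockdown and 1.76%, 2.39% and 4.05% in NF24 control libraries. The part of these fragments in the levels of the genes was not tested. With unstranded counts, 192 genes met the rule and 179 of them were among the 196.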

How the results depend on the processing

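Of 94 recomputed values, 89 stayed within the limits set for a change, 4 moved and 1 reversed. These limits were wide. Counts were judged by size alone and not by the genes shared, so 131, 146 and 254 genes in place of 196 are among the 89. So is an NF24 median of 0.01 in place of 0.14, as medians were judged against the spread of the knockdown libraries. Counts of 0 that stayed at 0 made up 14 of the 89 at NF24 and 14 at NF10, knockdown against control. The 89 include 5 of 9 NF10 medians that lay above 0, where the median of all libraries was just under it. The 196 genes became 100 where the NF16 knockdown had to reach the full control mean, 86 with a rise of at least 3 and 104 with an NF16 to NF24 change under 0.5. Leaving out single libraries gave 131 to 254 genes. Without NF16 knockdown replicate 1 there were 131 (102 shared with the 196) and without NF16 knockdown replicate 2 there were 254 (175 shared), so the list depends on these libraries. It depends on the NF16 controls as well. Without NF16 control replicate 1 there were 196 genes (145 shared) and without NF16 control replicate 2 there were 180 (138 shared). Total counts only gave 146 genes (103 shared). It moved the median log2 ratio of all genes from 0.03 to 0.12 at NF16, knockdown against control, and from 0.02 to -0.22 for NF24 against NF10 knockdown caps, where RLE factors gave 0.16. At NF24 DESeq2 called 3 genes and edgeR 0. For NF24 against NF10 knockdown caps, leaving out single libraries gave 183 to 191 genes and medians of 2.82 to 3.14, and without both NF24 knockdown libraries of high unmapped share, chosen after seeing the data, 149 genes and 2.67. The single NF24 library left is then assumed to vary like the NF10 libraries, which alone set the spread. At NF24, knockdown against control, the counts were 0 to 0 and the medians 0.01 to 0.28, and without the same pair of libraries the median was -0.15. At NF10 they were 0 to 0 and -0.13 to 0.14. The replicate block gave 195 genes for NF24 against NF10 knockdown caps, where the numbers did not pair the libraries, and 0 in both other comparisons. Over all 11997 genes it called 4 at NF24, knockdown against control, where the fit without it called 0, and it called 0 at NF10. At NF16 each group had 2 libraries, which limits every value set there.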
